A study of Homo sapiens with 11 samples.

Results

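Granins and VGF are the cargo proteins of the regulated secretory pathway. They are acidic proteins that gather with peptide hormones in dense-core granules and are cut there, at pairs of basic residues, into bioactive peptides. The prohormone convertase PCSK1 makes many of these cuts, and SCG5 (7B2) is the chaperone of its relative PCSK2. High levels are typical of neuroendocrine cells, while A549 and H1299 are human cell lines from non-small cell lung cancers.

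The set held 6 genes, VGF, SCG2, SCG5, CHGA, CHGB and PCSK1, out of 19806 gene names found in both RNA tables. They were picked by symbol as genes of regulated secretion whose level differed between the lines and after knockdown, with the levels themselves in view. The differences between lines and after knockdown are therefore given as descriptions, without a test. The RNA-seq covered 2 H1299 libraries of cells with a short hairpin RNA against METTL3 (shMETTL3, numbered 1 and 2) and 1 H1299 library with a hairpin against GFP (shGFP), and the same number of each in A549. METTL3 is the catalytic subunit of the enzyme that writes N6-methyladenosine (m6A) on mRNA, and the series asked what it does for translation. The labels give no knockdown time, clone or culture, and do not say whether the numbers stand for hairpins or for replicates, so that spreads and p-values cover these libraries alone and may be technical. Because each line had 1 shGFP library, the control has no replicate.

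Levels are deposited values, in which 1 unit stood for 4.5 to 5.1 reads in H1299 and 2.8 to 3.8 reads in A549, at 23099169 to 26351309 reads in H1299 genes and 14447379 to 19966206 in A549 genes. METTL3 stood at 123.1 and 100.2 in H1299 shMETTL3 libraries 1 and 2, against 271.2 in H1299 shGFP. In A549 METTL3 stood at 231 and 232 with shMETTL3, against 557 with shGFP. Epithelial markers (EPCAM, CDH1, KRT8, KRT18, KRT19) summed to 1189 to 1610 in H1299 and to 18102 to 26155 in A549. Most of the H1299 sum was KRT18, at 1075 to 1419, with KRT8 at 113 to 189. In H1299 EPCAM did not exceed 0.4 and CDH1 did not exceed 1.1, and KRT19 was listed at 0 in every library. Neuroendocrine markers were mixed. UCHL1 stood at 3236 to 3787 in H1299 and 4364 to 5006 in A549, TUBB3 at 755 to 880 and 1011 to 1071, ENO2 at 273 to 336 and 588 to 695, and DLL3 at 29.6 to 31 and 23.6 to 36.2. NCAM1 did not exceed 0.9 in H1299 and 0.26 in A549, and the factor NEUROD1 stood at 6.9 to 7.8 in H1299. Leukocyte markers (4 of 5 listed) summed to 252 to 278 in H1299 and 187 to 214 in A549, with the defining PTPRC at 0.7 or less, and endothelial markers (5 of 5) to 13.4 to 16.8 and 21.2 to 30.4. Fibroblast markers (4 of 5) summed to 32.4 and 35.2 in H1299 shMETTL3, against 13.7 in shGFP, and to 104 and 78.1 in A549 shMETTL3, against 62.4. Most of each sum was COL1A1, at 30 and 32.2 in H1299 shMETTL3, against 12.5, and 91.8 and 72.2 in A549 shMETTL3, against 59.7. COL3A1 stood at 9.64 and 3.13 in A549 shMETTL3, against 1.58, and at 0.4 and 1.0 in H1299 shMETTL3, against 0. PDGFRB, LUM (listed in A549 alone) and DCN (listed in H1299 alone) did not exceed 2.19 where listed. The part of COL1A1 and COL3A1 in the results was not tested. A single gene, the ribosomal RNA precursor RNA45S5, took 20.5 to 25.4% of reads in H1299 and 0.208 to 0.284% in A549.

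VGF, a neurotrophin-induced precursor of several neuropeptides, had the widest range of the set. It stood at 990.0 and 1803 in H1299 shMETTL3 libraries 1 and 2, against 2279 in H1299 shGFP. In A549 it stood at 2.5 and 4.06 in shMETTL3 libraries 1 and 2, against 24.7 in shGFP. Every H1299 library was thus far above every A549 library, and within each line both knockdown libraries lay below the control. The A549 knockdown values rest on 7 and 13 reads, against 94 reads in the control, while the H1299 values rest on 4455 to 11623 reads.

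SCG2 (secretogranin II), the precursor of secretoneurin, had reads in every library of both lines. It stood at 78.9 and 53.6 in H1299 shMETTL3 libraries 1 and 2, on either side of the 65.3 of shGFP. The A549 libraries had 33.6 and 43.4 with shMETTL3, against 11.6 with shGFP. Every H1299 library lay above every A549 library on deposited values, and the A549 control was the lowest of the libraries. Between the lines SCG2 was 2.35 times higher in H1299 for shMETTL3 library 1 (95% counting interval 1.87 to 2.98) and 1.23 times for library 2 (1.002 to 1.53). Scaled by the median gene of the shGFP libraries, these ratios were 3.24 and 1.70.

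The chromogranins CHGA and CHGB, which drive granule formation and are the usual markers of neuroendocrine tissue, went different ways between the lines. CHGA stood at 0.2 and 0.6 in H1299 shMETTL3 and 0.4 in H1299 shGFP, or 1 to 3 reads. In A549 it stood at 8.21 and 8.13 with shMETTL3 and 8.16 with shGFP, or 23 to 31 reads. CHGB stood at 83.6 and 117.6 in H1299 shMETTL3 libraries 1 and 2, on either side of the 93.3 of shGFP. In A549 CHGB stood at 65 and 55 with shMETTL3, again on either side of the control at 57.9. CHGA was thus near the detection limit in H1299 and had similar values in the A549 libraries, from few reads. CHGB was present in both lines, with every H1299 library above every A549 library.

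The processing genes SCG5 and PCSK1 had few reads. SCG5 stood at 0.2 and 0 in H1299 shMETTL3 and 0.6 in H1299 shGFP, which is at most 3 reads. In A549 SCG5 stood at 3.93 and 1.56 with shMETTL3 and 5.79 with shGFP, or 11, 5 and 22 reads. PCSK1 was listed at 0 in all H1299 libraries, where a count of 0 allows a value of up to 0.667 and 0.6 in shMETTL3 libraries 1 and 2 and 0.588 in shGFP, a limit of 3 reads. The plotted bars are 2-sided intervals and reach higher, to 0.820, 0.738 and 0.723. In A549 it stood at 1.07 and 0.94 with shMETTL3 and 0.53 with shGFP, from 3, 3 and 2 reads, so no fold is given for it. The gene overlaps CAST (364 and 185 in H1299 shMETTL3, against 322, and 680 and 288 in A549 shMETTL3, against 446), and SCG5 overlaps a read-through transcript with ARHGAP11A and an antisense gene, so that their reads cannot be assigned with certainty where the strand setting is unknown. Intervals and limits here cover counting error only.

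**Figure D1:**
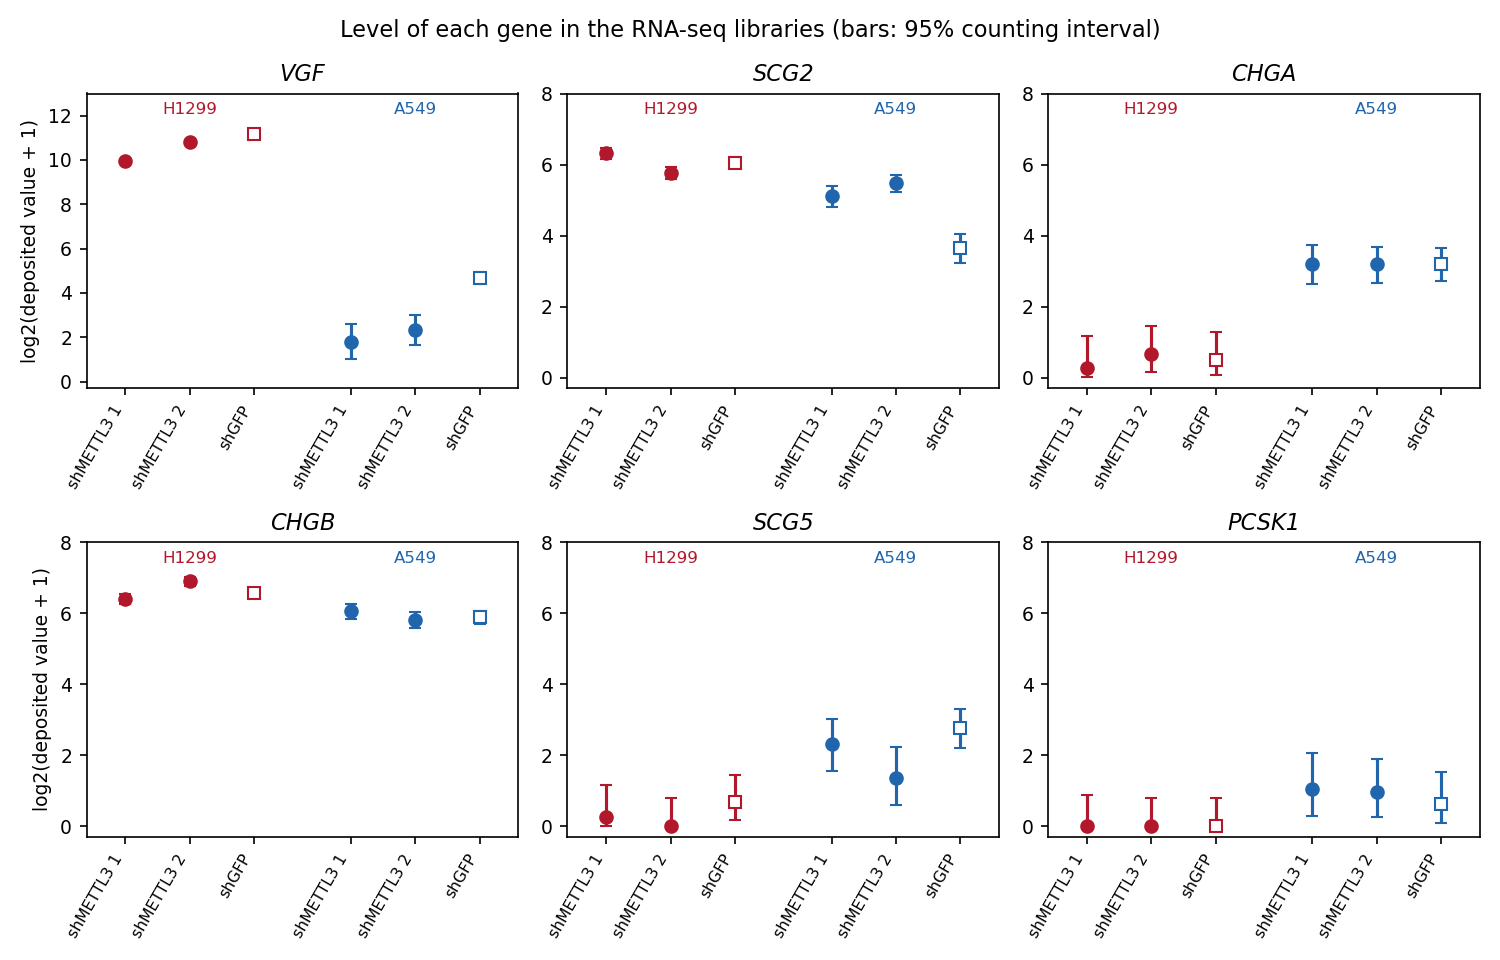
Level of each of the 6 genes as log2(deposited value + 1) in the H1299 (red) and A549 (blue) libraries; filled circles are shMETTL3 libraries 1 and 2, open squares shGFP, and bars 95% exact Poisson intervals of the reads. The VGF axis runs higher than the others: VGF lies between 990.0 and 2279 in H1299 and between 2.5 and 24.7 in A549, and PCSK1 lies at 0 in every H1299 library.

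By lines, the set split into genes higher in H1299 and genes higher in A549. The lines came in separate tables, so the ratio of shGFP libraries (H1299 over A549) was taken under 4 scalings. Deposited values and values scaled to total reads lay close together, so they are hardly separate checks. For VGF the ratio was 92.1 on deposited values (95% counting interval 75.2 to 114), 93.7 on values scaled to total reads, 122 on total reads without RNA45S5 and 127 after scaling by the median gene. That median lay at -0.46 on the log2 scale over 15559 genes on deposited values, and scaling by it raised each ratio. SCG2 had a ratio of 5.64 (4.11 to 7.91) on deposited values and 7.78 relative to the median gene. CHGB had 1.61 (1.37 to 1.90) and 2.22.

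The other 2 genes with reads in both lines had ratios below 1. CHGA, with 2 reads in H1299 shGFP, had a ratio of 0.0481 (0.00557 to 0.189) on deposited values and 0.0663 relative to the median gene, and SCG5 0.102 (0.0195 to 0.338) and 0.140. No ratio changed side under a scaling. On log2(value + 1), VGF was at least 2-fold higher in H1299 between the nearest libraries of the lines, as were 7.52% of 17769 genes. CHGA was at least 2-fold lower in H1299 in the same way, as were 20.6% of these genes. SCG5 missed that size by this measure, with a gap of 0.68 on the log2 scale between its nearest libraries, and SCG2 (0.30) and CHGB (0.36) missed it in the other direction.

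**Figure D2:**
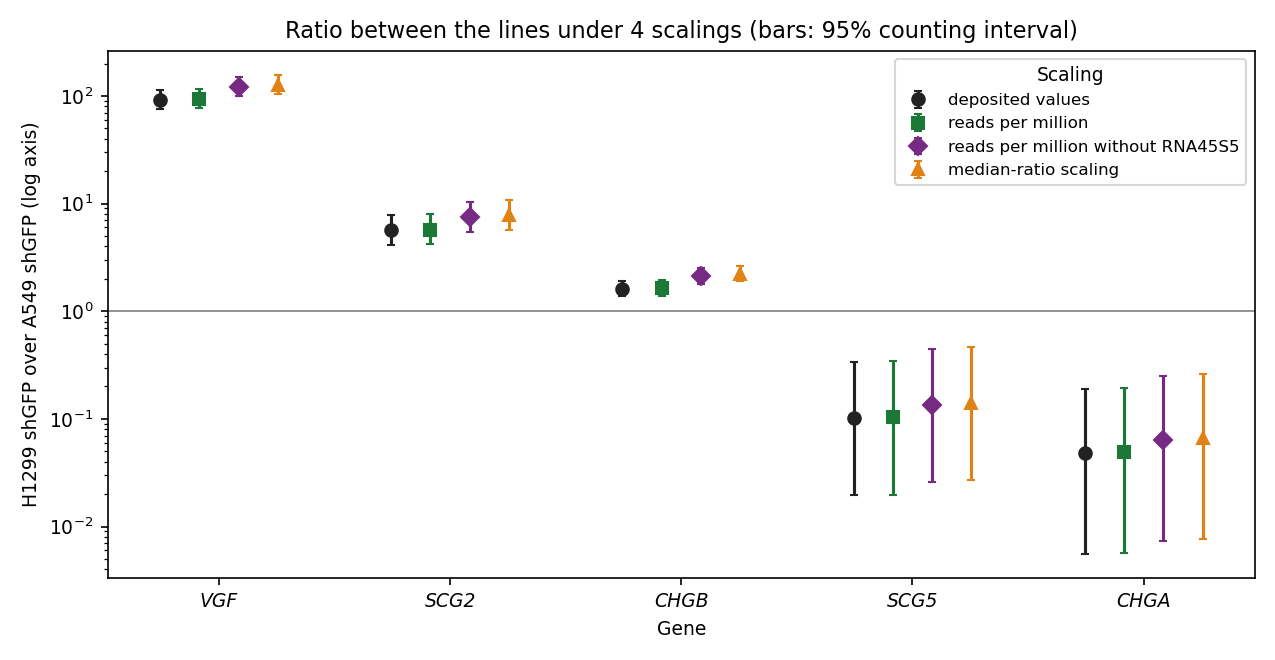
Ratio of the H1299 shGFP library to the A549 shGFP library (log axis) for 5 genes under 4 scalings, with 95% counting intervals from 1 library a line; the grey line marks 1. VGF, SCG2 and CHGB lie above 1 and SCG5 and CHGA below it under each scaling, from 92.1 to 127 for VGF and from 0.0481 to 0.0663 for CHGA.

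After METTL3 knockdown, VGF was lower and SCG2 higher in A549. VGF stood at 10.1% of shGFP in A549 library 1 (ratio 0.101, 95% counting interval 0.0396 to 0.217) and at 16.4% in library 2 (0.164, 0.0843 to 0.295). Its log2 change on value + 1 was -2.61 (SE 0.46). SCG2 stood at 2.90 times shGFP in A549 library 1 (2.01 to 4.25) and 3.75 times in library 2 (2.66 to 5.39), a log2 change of 1.64 (SE 0.33). SCG5 stood at 0.679 of shGFP (0.297 to 1.46) and 0.270 (0.0798 to 0.730), so that the interval reaches past 1 in library 1 alone. CHGA (1.01 and 0.996) and CHGB (1.12 and 0.95) stayed near 1 in both A549 libraries, with intervals that include it. Those of CHGA were wide, at 0.561 to 1.78 in library 1 and 0.568 to 1.73 in library 2.

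In H1299 VGF and SCG2 lay closer to the control than in A549, and CHGB did not. VGF stood at 43.4% of shGFP in library 1 (ratio 0.434, 95% counting interval 0.420 to 0.450) and 79.1% in library 2 (0.791, 0.770 to 0.813), a log2 change of -0.77 (SE 0.37). SCG2 stood at 1.21 times shGFP (1.04 to 1.41) in library 1 and 0.821 times (0.696 to 0.967) in library 2, on opposite sides. CHGB did the reverse, with 0.895 (0.780 to 1.03) in library 1 and 1.26 (1.11 to 1.42) in library 2. The difference of the log2 changes (H1299 minus A549) was 1.84 (SE 0.56) for VGF, -1.65 (SE 0.48) for SCG2 and 0.04 (SE 0.41) for CHGB.

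Of the 6 genes, 5 had a mean of at least 1 in A549 and 3 (VGF, SCG2, CHGB) in H1299, the level needed to enter the fit over all genes. By limma with Benjamini-Hochberg adjustment, 0% of 16470 H1299 genes and 0% of 17454 A549 genes passed an adjusted p of 0.05, with 99 and 115 genes at an unadjusted p under 0.05. Both lines together gave 0% of 15546 genes (374 unadjusted), and the difference between lines 0% (49 unadjusted). By size, 1 gene of the set (VGF) was at least 2-fold lower in both A549 libraries, against 0.0745% of all A549 genes, and 1 (SCG2) at least 2-fold higher, against 0.321%. None was in H1299, where 0.0364% of genes were lower and 0.103% higher by that size. VGF and SCG5 were below the control in both A549 libraries, as were 27.2% of genes, and SCG2 above it, as were 27.2%. CHGA and CHGB lay on either side of it.

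VGF was below the control in both H1299 libraries, as were 24.5% of genes, and in all 4 knockdown libraries, as were 9.05%. The genes were chosen with these values known, so nothing is read from these shares. In bulk RNA, fewer cells with a transcript and less of it per cell cannot be told apart.

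**Figure D3:**
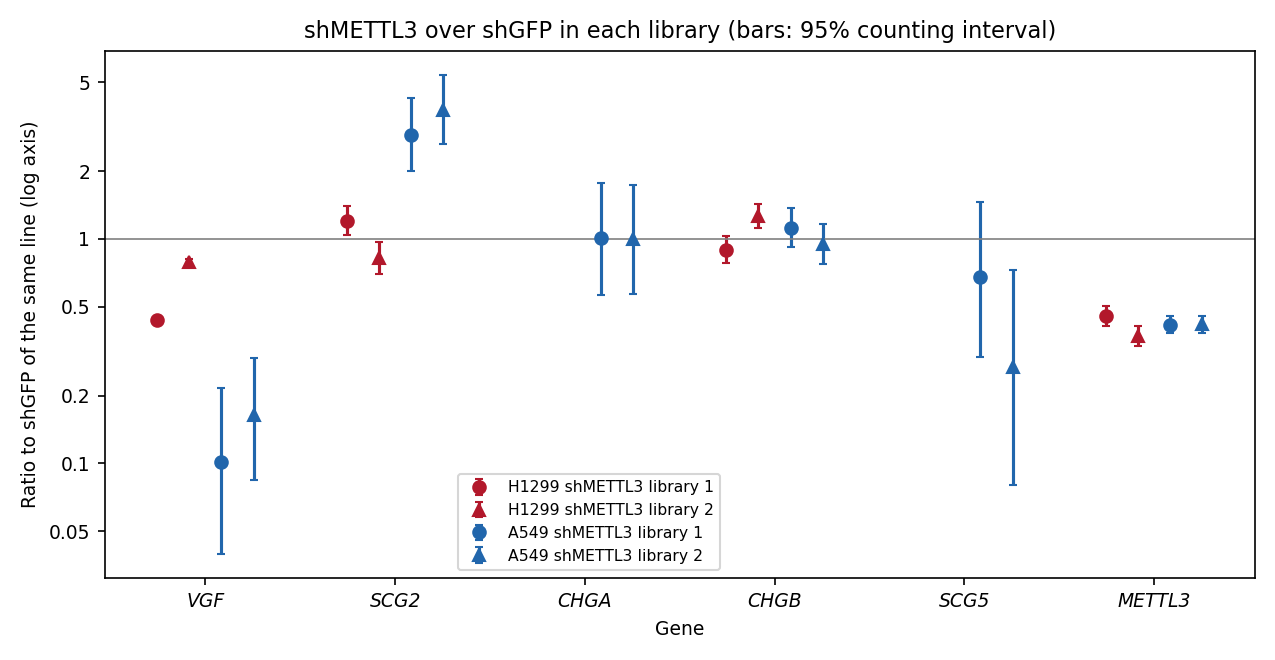
Ratio of each shMETTL3 library to shGFP of its line (log axis) for 5 genes of the set and METTL3, with 95% counting intervals; circles are library 1, triangles library 2, red H1299, blue A549, and the grey line marks 1. CHGA and SCG5 are shown for A549 alone, since H1299 had at most 3 reads of either in a library; VGF lies below 1 in each library, at 0.434 and 0.791 in H1299 and 0.101 and 0.164 in A549.

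The contrast of shMETTL3 number 1 with number 2 is not named in the rule that chose the genes. The values of these libraries were in view when the members were chosen, so this contrast is described for them without a test. VGF was lower with number 1 in both lines, at 0.549 of number 2 in H1299 (95% counting interval 0.530 to 0.569) and 0.615 in A549 (0.208 to 1.66). Over both lines the log2 difference was -0.70 (SE 0.39). SCG2 went in opposite directions, at 1.47 in H1299 and 0.773 in A549 (log2 0.09, SE 0.39), and so did CHGB, at 0.711 and 1.18 (log2 -0.13, SE 0.19). Over all genes, 1.65% of 15546 passed an adjusted p of 0.05 by limma, 191 of them higher and 66 lower with number 1. The H1299 counting intervals of VGF, SCG2 (1.25 to 1.73) and CHGB (0.623 to 0.810) all exclude 1, and they cover counting error alone.

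The genes whose changes lay nearest to those of each member were found by the root mean square distance over the 4 log2 ratios of knockdown to control, among 12981 genes with a mean of at least 5 in both lines. For VGF the nearest was METTL3 itself, at a distance of 1.12, and then the noncoding LINC01465 (1.14) and ANKRD29 (1.19). These were lower with shMETTL3 by less than VGF in A549, and ANKRD29 was above its control in H1299 library 2 (8.0, against 6.9). No gene lay closer to VGF than 1.12, and METTL3, the target of the hairpin, is low by design. The ratios were in view when VGF was chosen, so nothing is read from its neighbours. For SCG2 the nearest included PIK3IP1, an inhibitor of PI3K (0.27), and the histone gene HIST1H4H (0.44). PIK3IP1 stood at 9.1 and 4.0 in H1299 shMETTL3, on either side of the 5.9 of shGFP, and at 9.29 and 7.81 in A549 shMETTL3, against 2.11 in shGFP. For CHGB, whose changes were small, RPS6KA1, IMPDH1 and EHD1 lay within 0.04.

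The promoters of the set are shown because 3 of the 4 members with a RefSeq window (GRCh38.p14) held the same motif close to the start site. The cAMP response element (CRE, letters TGACGTCA, the same on both strands) binds CREB, the factor through which cAMP and neurotrophins switch on secretory genes. Windows ran from 250 bases before to 50 bases after the start, and 1.85% of 35116 such windows held a CRE. By gene, 2.25% of 27305 had a CRE in a window. VGF has it 79 to 72 bases before the start, PCSK1 77 to 70 and CHGA 54 to 47 bases before it, on chromosomes 7, 5 and 14. The 250 bases before each start are printed on the strand of the gene, with the CRE in capitals, for VGF at chr7:101165570-101165819 (minus strand), CHGA at chr14:92922900-92923149 (plus strand) and PCSK1 at chr5:96433249-96433498 (minus strand).
VGF: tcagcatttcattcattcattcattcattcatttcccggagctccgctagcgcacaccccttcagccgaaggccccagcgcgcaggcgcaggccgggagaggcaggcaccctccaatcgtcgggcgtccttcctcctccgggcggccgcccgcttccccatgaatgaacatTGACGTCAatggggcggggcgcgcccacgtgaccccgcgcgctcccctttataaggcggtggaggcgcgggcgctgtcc
CHGA: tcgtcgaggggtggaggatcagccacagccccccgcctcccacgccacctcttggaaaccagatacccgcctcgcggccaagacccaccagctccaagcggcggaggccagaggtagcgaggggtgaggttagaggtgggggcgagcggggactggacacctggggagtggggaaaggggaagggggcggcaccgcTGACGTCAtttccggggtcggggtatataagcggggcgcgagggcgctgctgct
PCSK1: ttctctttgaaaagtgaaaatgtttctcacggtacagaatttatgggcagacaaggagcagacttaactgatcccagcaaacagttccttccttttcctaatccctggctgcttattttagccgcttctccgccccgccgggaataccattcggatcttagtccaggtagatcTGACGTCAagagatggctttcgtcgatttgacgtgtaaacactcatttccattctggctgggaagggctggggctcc

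The second PCSK1 window held no CRE, and the SCG5 window held the CRE core alone (letters TGACG, either strand), 17 to 13 bases before the start. The core is part of every CRE and occurred in 24.6% of windows; PCSK1 has another copy 49 to 45 bases before its start. No window of SCG2 or CHGB was used here. The binding motif of REST, a repressor of neuronal genes, known as NRSE, was searched on both strands with at most 1 mismatch over its consensus. That allowance was set after a first search. It was found in 1.16% of windows and in VGF alone of the set, on the opposite strand from 6 bases before to 11 bases after the start, at chr7:101165559-101165575, with 1 mismatch. On the strand of the gene the VGF match reads as follows, in lower case because it crosses the start.
VGF match: ctgtccagcgtgctgaa

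These matches are letters in a window and not measured binding. VGF and CHGA both carry a CRE. In H1299 VGF was above its A549 level, and CHGA, with 1 to 3 reads in H1299, was below it. After knockdown in A549, VGF stood at 0.101 and 0.164 of the control and CHGA at 1.01 and 0.996. The CHGA counting intervals were wide, at 0.561 to 1.78 and 0.568 to 1.73. With the members left out, the median log2 change over 405 measured genes with a CRE in a window was 0.02 in H1299. It was also 0.02 there over 11438 genes with any window. In A549 the median was -0.01 over 405 genes with a CRE, against -0.003 over 12045 genes with any window. REST itself stood at 190.4 and 122.0 in H1299 shMETTL3 and 160.8 in shGFP, and at 184 and 188 in A549 shMETTL3 and 180.3 in shGFP. The part of the CRE or of REST in these levels and changes was not tested.

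**Figure D4:**
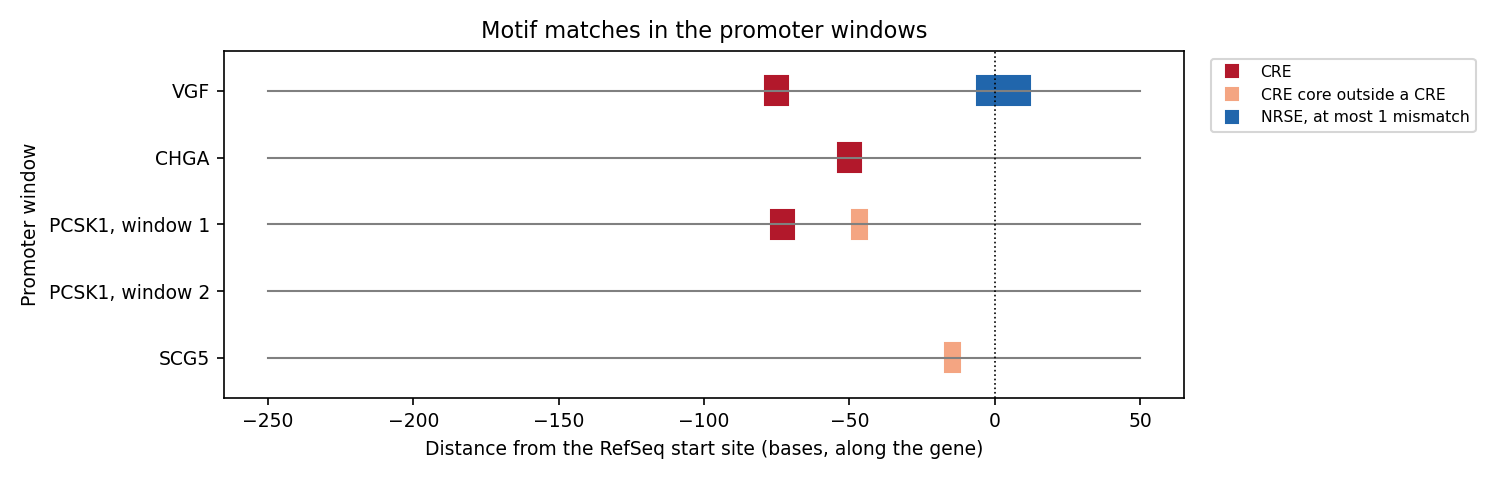
Motif matches in the RefSeq promoter windows of VGF, CHGA, PCSK1 (2 windows) and SCG5, as the distance in bases from the start site (dotted line). Red marks the CRE, 79, 54 and 77 bases before the start in VGF, CHGA and PCSK1; orange marks a CRE core outside a CRE, and blue the NRSE match of VGF.

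The rest of the pathway was followed in 6 lists, holding 164 genes beside the members. By limma, 0 of the 107 measured list genes in H1299 and 0 of 116 in A549 passed an adjusted p of 0.05, with 2 in each line at an unadjusted p under 0.05. In prohormone processing, 8 of 15 genes were above the control in both H1299 libraries and 3 below it (median log2 0.05), and 5 and 4 of 17 in A549 (median 0.16). Over all genes, 30.6% were above and 24.5% below the control in both H1299 libraries, and 27.2% and 27.2% in A549. No list was tested as a set. PCSK1N, the proSAAS inhibitor of PCSK1, stood at 20 and 21.4 in H1299 shMETTL3, against 12.2 in shGFP, and at 47.5 and 58.8 in A549 shMETTL3, against 36.3 in shGFP. Both lines had it above the control in both libraries (log2 0.72, SE 0.31 in H1299 and 0.53, SE 0.28 in A549). The lysosomal protease CTSL stood at 691 and 948 in A549 shMETTL3, against 1337 in shGFP (log2 -0.72, SE 0.26), and at 82.9 and 107.4 in H1299 shMETTL3, against 103.9. CPM, a carboxypeptidase of the cell surface, stood at 90.7 and 88.0 in H1299 shMETTL3, against 62.0. QPCT, which forms pyroglutamate at peptide ends, stood at 71.6 and 45 in H1299 shMETTL3, against 33.5. The convertase PCSK2 stood at 0.2 in both H1299 shMETTL3 libraries and 0.4 in shGFP, at most 2 reads.

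In granule exocytosis 6 of 25 genes were above and 6 below the control in both H1299 libraries (median log2 0.03), and 7 and 5 of 30 in A549 (median 0.11). The shares over all genes were 30.6% above and 24.5% below in H1299, and 27.2% and 27.2% in A549. SYT1, the calcium sensor of fast release, stood at 19.1 and 5.8 in H1299 shMETTL3 libraries 1 and 2 and 8.0 in shGFP, and at 87.9 and 34.1 in A549 shMETTL3 and 24.7 in shGFP. SYT11 stood at 41.3 and 5.2 in H1299 shMETTL3 and 15.7 in shGFP, and at 48.2 and 21.6 in A549 shMETTL3 and 27.6 in shGFP. SORL1, a sorting receptor of the processing list, stood at 620 and 327 in H1299 shMETTL3 and 485 in shGFP, and at 495 and 147 in A549 shMETTL3 and 235 in shGFP. Between number 1 and number 2 these 3 of 96 measured list genes passed, against 1.65% of all 15546 genes, where number 1 was higher in both lines, with log2 differences of 1.45 (SE 0.25, adjusted p = 0.0342 by limma) for SYT1, 1.95 (SE 0.34, adjusted p = 0.0360 by limma) for SYT11 and 1.33 (SE 0.19, adjusted p = 0.0195 by limma) for SORL1. Epithelial markers also differed between the A549 libraries, with KRT19 at 1396 in number 1 and 427 in number 2, EPCAM at 75.4 and 14.1 and CDH1 at 646 and 284, and their part in these differences was not tested. Without an intensity trend none of the 3 list genes passed (adjusted p = 0.166, 0.172 and 0.166 by limma). The priming factor UNC13A stood at 116 and 72.8 in A549 shMETTL3, against 161 in shGFP, the GTPase RAB27B at 1139 and 1342, against 864, and the calcium-binding DOC2A at 12.9 and 14.7, against 8.68.

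Among other neuropeptide and hormone precursors 2 of 13 genes were above and 4 below the control in both H1299 libraries (median log2 -0.03), and 5 and 6 of 19 in A549 (median -0.06). The shares over all genes were 30.6% above and 24.5% below in H1299, and 27.2% and 27.2% in A549. Adrenomedullin (ADM) stood at 208.0 and 173 in H1299 shMETTL3, against 258 in shGFP, and at 256 and 232 in A549 shMETTL3, against 332 (log2 -0.44, SE 0.24 in H1299 and -0.45, SE 0.20 in A549). The stanniocalcin STC2 stood at 201 and 866 in A549 shMETTL3 libraries 1 and 2, on either side of the 692 of shGFP, and its relative STC1 at 65.7 and 190.3, on either side of 77.6. Galanin (GAL) stood at 11.4 and 16.3 in A549 shMETTL3, against 21.1 in shGFP. NMU, the neuromedin U precursor, was the list gene at least 2-fold higher in both A549 libraries, at 3.21 and 2.5 in shMETTL3, against 0.53 in shGFP, where the control value is under the limit of 3 reads.

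Among neuroendocrine markers, 3 of 9 genes were above and 2 below the control in both H1299 libraries (median log2 0.10), and 3 and 1 of 10 in A549 (median 0.12). The vesicle protein SYP stood at 23.8 and 39.6 in H1299 shMETTL3 and 24.5 in shGFP, and at 33.2 and 38.4 in A549 shMETTL3, against 42.6. The growth cone protein GAP43 stood at 9.8 and 5.8 in H1299 shMETTL3, against 11.4, the Notch ligand DNER at 19.3 and 56.9 in A549 shMETTL3 and 24.5 in shGFP, and the adhesion protein L1CAM at 56.1 and 35.6 in A549 shMETTL3, against 33.7. Of neuroendocrine transcription factors and REST partners, 10 of 19 were above and 1 below in H1299 (median 0.18), and 4 and 5 of 13 in A549 (median 0.05). They included POU3F2 (51.1 and 38.8 in H1299 shMETTL3, against 31.8) and NKX2-2 (10.7 and 11.4, against 6.9). The REST corepressor RCOR2 stood at 6.79 and 7.19 in A549 shMETTL3, against 12.6. Over all H1299 genes 30.6% were above and 24.5% below the control in both libraries (median log2 0.02), and over all A549 genes 27.2% and 27.2% (median -0.00).

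The list of cAMP and CREB signalling also holds targets of CREB. In both H1299 libraries 4 of its 26 measured genes were above the control and 12 below it (median log2 -0.10). In both A549 libraries 9 of 27 were above it and 5 below it (median 0.05). The shares over all genes were 30.6% above and 24.5% below in H1299, and 27.2% and 27.2% in A549. The nuclear receptor NR4A2, an early target of CREB, stood at 88.7 and 106.0 in H1299 shMETTL3, against 172.0 in shGFP (log2 -0.82, SE 0.25), and at 40.0 and 41.9 in A549 shMETTL3, against 21.8 (log2 0.88, SE 0.28). Its relative NR4A3 stood at 6.7 and 8.2 in H1299 shMETTL3, against 17.1 (log2 -1.10, SE 0.34), and at 1.07 and 2.5 in A549 shMETTL3, against 3.42. NR4A2 thus lay below the control in H1299 and above it in A549. The phosphatase DUSP1 stood at 332 and 899 in A549 shMETTL3, on either side of 864, and the phosphodiesterase PDE4B at 86.1 and 63.4, against 49.7.

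**Figure D5:**
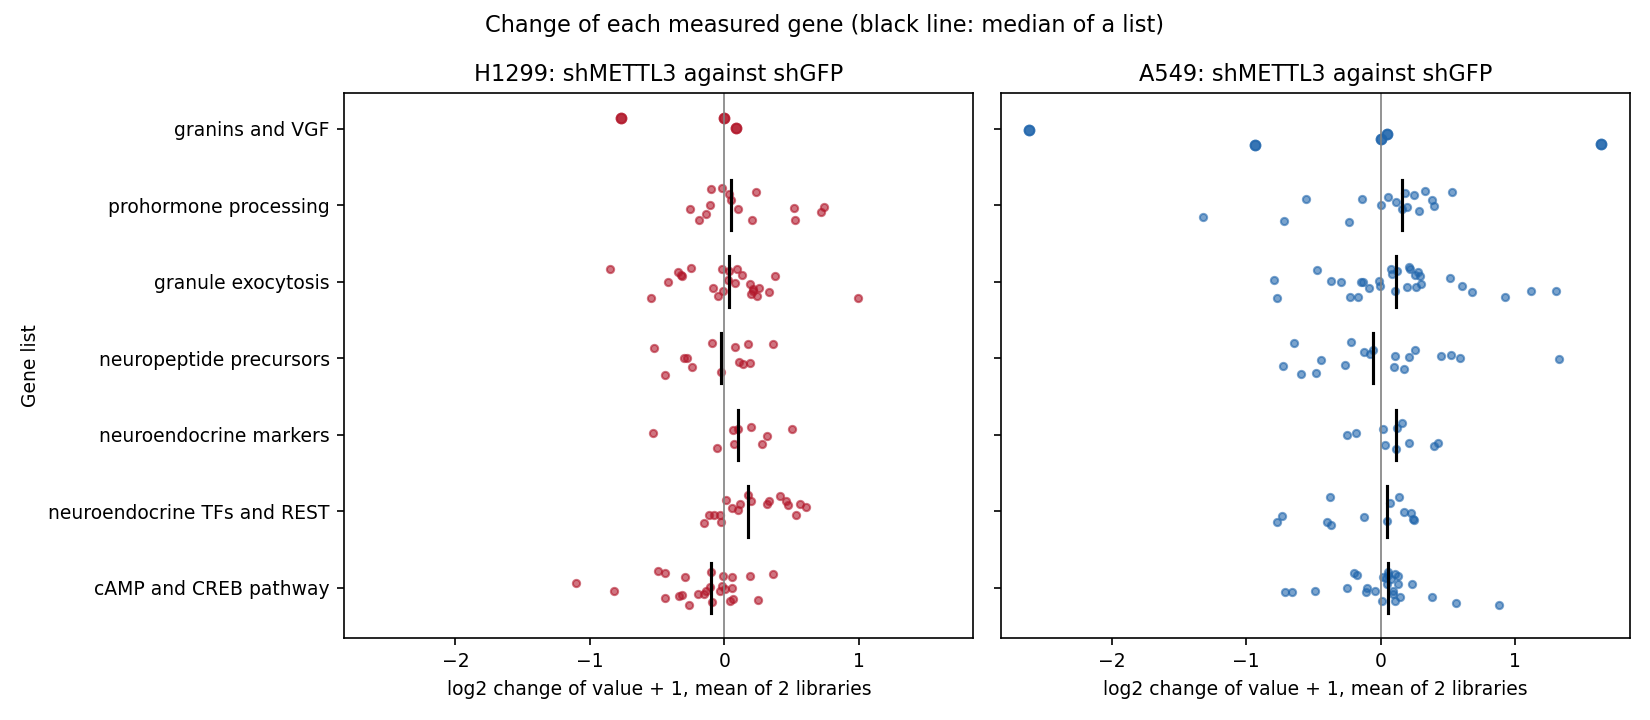
log2 change of value + 1 (mean of shMETTL3 libraries 1 and 2 against shGFP) of each measured gene in H1299 (left, red) and A549 (right, blue), for the granins and VGF and for 6 lists of the pathway; black lines are list medians. In A549, VGF lies at -2.61 and SCG2 at 1.64, values known when these genes were chosen; measured list genes run from -1.32 (PTPRN2) to 1.33 (NMU), and list medians lie between -0.10 and 0.18 in the 2 lines.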

How the data were processed

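Poly(A) RNA-seq of H1299 and A549 cells was used. Per the submitters' processing notes, TopHat and Bowtie were used with the hg19 build; no source used here names the counter, the annotation or the strand option. The authors deposited a signal per gene and library. In each library 100% of values matched, within their rounding, a whole number of reads divided by 1 factor (3.8, 2.8 and 3.2 in A549 and 5.1, 4.5 and 5 in H1299 for shGFP and libraries 1 and 2). The headers write shMEL over the A549 knockdown values; these were matched by number.

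limma 3.58.1 in R 4.3.3 (lmFit, eBayes with an intensity trend) compared log2(value + 1) over genes with a mean of at least 1, within each line, over both lines with line as a term, for the difference between lines, and for number 1 against 2. Fits within a line leave 1 residual degree of freedom, with the spread of the lone control taken to equal that of the knockdown pair. The code was tested on simulated data. edgeR 4.0.16 (quasi-likelihood) ran on recovered A549 reads; H1299 values carry 1 decimal, which is coarse beside the step of 1 read, and 2 of the 3 H1299 columns did not pass a stricter check for whole reads. No count test was run there, and H1299 reads and their intervals rest on that rounding. Intervals are exact Poisson or Clopper-Pearson at 95%.

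From each list up to 4 genes with the largest log2 change in a line with a mean of at least 5 were named, with those that passed; NMU, PTPRN2, REST and PCSK2 were chosen after their values were seen. Members and lists were chosen with earlier results of these data known. The NRSE mismatch was set after a first search. The 3 m6A peak lists were not used here, as they were not assigned to genes; transcript lengths were not used, so levels were not compared between genes. Some items, among them marker genes and a nearest gene of SCG2, are not reported here.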

Additional observations from a re-analysis of the deposited data

Results flagged for a closer look

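Among the genes named, 4 lay on opposite sides of the control in the lines in every library; the lines' difference in log2 change (H1299 minus A549) is given for each, and by limma none of them passed (adjusted p = 1). NR4A2 had a difference of -1.70, with -0.95 and -0.69 in H1299 libraries 1 and 2 and 0.84 and 0.91 in A549. SRRM4, a splicing factor that acts on REST transcripts, had a difference of 0.93, with 0.49 and 0.58 in H1299 and -0.46 and -0.34 in A549. PDE4B had a difference of -0.85, with -0.01 and -0.57 in H1299 and 0.78 and 0.34 in A549. CPM had a difference of 0.75, with 0.54 and 0.50 in H1299 and -0.36 and -0.11 in A549. The cause of these differences was not tested. Over all A549 genes, 27.2% were above and 27.2% below the control in both libraries. Over all H1299 genes, 30.6% were above and 24.5% below it. The share of all genes on opposite sides in the lines was not computed, so nothing is read from the count of 4.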

How the results depend on the processing

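The counts of genes passing between shMETTL3 and shGFP in H1299, in A549 and for the difference between lines were 0 under each setting run: a pseudocount of 0.1, no filter, a mean of at least 5, median centring, no intensity trend, and leaving out each knockdown library, where the fit covered both lines and the other line gave the spread. METTL3 itself had an adjusted p of 1 in each line by limma, so these zeros say nothing about stability. edgeR's quasi-likelihood test on recovered A549 reads called 0 of 17454 genes (138 at an unadjusted p under 0.05); for H1299 and both lines it was not run. Over both lines 1 gene passed with a replicate block for the numbers 1 and 2, METTL3 (log2 -1.27, adjusted p = 0.0173 by limma), and 0 otherwise. The numbers pair no samples by the labels; the deviations of number 1 correlated between lines at 0.24 over 15546 genes. Between number 1 and 2, 257 genes passed, against 162 with no filter and 0 with no intensity trend; of list genes 3 passed, against 8 at a mean of at least 5. The log2 changes of VGF and SCG2 in A549 stayed between -2.88 and -2.35 and between 1.46 and 1.82 when either knockdown library was left out. Peak settings were not run.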
